A study of Mus musculus with 16 samples.

Results

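The epidermal kallikreins are secreted serine proteases of the upper epidermis, and Spink5 encodes the main inhibitor that holds them in check. The set described here was chosen by name and holds 9 kallikreins, Klk5, Klk6, Klk7, Klk8, Klk9, Klk10, Klk11, Klk13 and Klk14, together with Spink5, which makes 10 genes among the 23238 gene symbols of the tables. All 10 genes passed the filter on low counts, which kept 14854 of 23282 rows. The libraries came from the dorsal skin of 16 male wild-type C57BL/6N mice bought at 3 weeks of age, with 4 mice in each of 4 groups and 1 library per mouse. After 1 week of adaptation, Cont mice ate normal chow, and mice of the other groups ate a diet low in ligands of the aryl hydrocarbon receptor (AhR), a transcription factor that binds dietary and microbial indoles, for 12 weeks on paper bedding. LowAhR mice had no further treatment named in the methods. LowAhR+AD mice were painted on the dorsal skin with 1% dinitrochlorobenzene (DNCB), a hapten that produces an atopic dermatitis-like inflammation, starting after 2 weeks of the diet. LowAhR+AD+BJ mice received the same DNCB treatment and, over the same time, the herbal extract BJIKT (Bojungikgi-tang) by gavage at 1 g/kg per day. No group received DNCB on normal chow or BJIKT without DNCB. Whether an effect of DNCB depends on the diet, or one of BJIKT on DNCB, therefore cannot be told here. DNCB was applied in acetone and olive oil, and the methods name no group painted with this solvent alone.

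Kallikreins are made as inactive precursors by granular keratinocytes and are released between the cells of the stratum corneum. There they cut the corneodesmosomes, the protein rivets that hold dead cells together, so that the cells can be shed. KLK5 and KLK14 cut after basic residues and can activate other kallikreins, whereas KLK7 cuts like chymotrypsin. LEKTI, the product of SPINK5, blocks several of them in a pH-dependent way, and inherited loss of SPINK5 causes Netherton syndrome, in which the skin barrier fails and atopic disease follows.

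The 9 kallikreins lie head to tail on the plus strand of mouse chromosome 7. With Klk12, which is no member of the set, they fill 170.302 kb at chr7:43680880-43851181 (RefSeq, GRCm38.p6, the assembly that mm10 represents). Their order is Klk14, Klk13, Klk12, Klk11, Klk10, Klk9, Klk8, Klk7, Klk6 and Klk5, and the records of Klk9 and Klk8 lie 773 bases apart. These are extents of whole gene records, predicted transcripts included. The annotated starts used for the promoters of Klk14, Klk9, Klk8, Klk6 and Klk5, and a second start of Klk11, lie inside these records. The results turn on Klk6, Klk7 and Klk13, which were each called in at least 2 comparisons, and on Klk5, the direct neighbour of Klk6, which was called in none. Their RefSeq promoters are therefore shown from 250 bases before to 50 bases after an annotated start, on the plus strand of GRCm38.p6, with both annotated starts of Klk6. Capitals mark the AhR core motif GCGTG.
Klk6, first start, chr7:43824294-43824593: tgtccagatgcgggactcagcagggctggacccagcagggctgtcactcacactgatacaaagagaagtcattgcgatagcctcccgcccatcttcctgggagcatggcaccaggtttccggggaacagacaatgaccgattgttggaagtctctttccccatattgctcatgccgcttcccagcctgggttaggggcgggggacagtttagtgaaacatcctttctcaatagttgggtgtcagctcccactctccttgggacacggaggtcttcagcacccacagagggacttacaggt
Klk6, second start, chr7:43825200-43825499: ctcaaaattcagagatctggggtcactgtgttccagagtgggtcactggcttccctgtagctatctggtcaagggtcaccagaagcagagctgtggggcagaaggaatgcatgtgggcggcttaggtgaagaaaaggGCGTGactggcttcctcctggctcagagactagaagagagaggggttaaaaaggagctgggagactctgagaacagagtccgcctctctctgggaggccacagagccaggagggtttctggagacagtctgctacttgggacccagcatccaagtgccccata
Klk7, chr7:43811044-43811343: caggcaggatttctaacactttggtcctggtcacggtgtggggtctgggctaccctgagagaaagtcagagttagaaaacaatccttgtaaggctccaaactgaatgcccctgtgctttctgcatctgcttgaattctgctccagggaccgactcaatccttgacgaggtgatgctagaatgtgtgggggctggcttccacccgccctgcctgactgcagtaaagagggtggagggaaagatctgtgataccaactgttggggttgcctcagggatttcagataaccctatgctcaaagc
Klk13, chr7:43712317-43712616: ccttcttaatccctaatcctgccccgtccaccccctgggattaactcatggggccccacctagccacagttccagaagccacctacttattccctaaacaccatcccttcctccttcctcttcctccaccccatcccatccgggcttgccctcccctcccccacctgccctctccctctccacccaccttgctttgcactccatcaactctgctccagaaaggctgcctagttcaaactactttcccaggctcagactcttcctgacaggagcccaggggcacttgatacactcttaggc
Klk5, chr7:43842019-43842318: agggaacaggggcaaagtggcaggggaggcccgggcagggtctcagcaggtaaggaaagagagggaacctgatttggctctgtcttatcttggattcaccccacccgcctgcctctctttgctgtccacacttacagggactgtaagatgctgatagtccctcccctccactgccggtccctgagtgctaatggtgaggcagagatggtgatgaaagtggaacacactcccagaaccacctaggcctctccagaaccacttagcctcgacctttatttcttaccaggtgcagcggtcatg

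The AhR core motif was found in 1 of the 11 kallikrein promoters, that of the second Klk6 start, at 113 to 109 bases before the start. The motif was searched on both strands and was present in 32.4% of the 32851 RefSeq promoters of the same length. A match to the STAT motif TTCNNNGAA was found in the promoter of Klk10 alone, and 8.30% of all promoters held one. The AP-1 motif TGANTCA (7.81% of all promoters), the TATA box TATAAA (13.6%) and the grainyhead-like motif AACCNGTT (2.09%) were not found in any of the 11. These matches describe letters in a window and say nothing of binding.

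Between 7080508 and 13467477 counts per library were assigned to genes, with 7080508 to 8773876 in Cont and LowAhR and 10614393 to 13467477 in both DNCB-treated groups. A count of 0 allows up to 3 counts, which corresponded to 0.223 to 0.424 CPM, counts scaled to a library total of 1000000. Keratinocyte genes were present in all groups, so the label of skin held. Marker lists of other cell types nevertheless moved with the groups. In LowAhR+AD against LowAhR, 9 of 9 skeletal muscle markers and 6 of 7 adipocyte markers were lower, and 7 of 7 activated keratinocyte markers were higher (edgeR, adjusted p under 0.05). Over all genes, 6.21% were lower and 6.42% higher by this rule. Of 12 suprabasal and granular keratinocyte markers, 3 were lower (Krt2, Krt77 and Flg2) and 1 was higher (Tgm3). The median of their sum was 9504 CPM in LowAhR (6032 to 11173) and 2520 CPM in LowAhR+AD (831 to 15811). The summed hair follicle markers ranged from 107 to 12508 CPM in LowAhR and from 7233 to 34418 CPM in LowAhR+AD. The summed keratinocyte list (Krt5, Krt14, Trp63, Cdh1, Dsp, Perp and Jup) ranged from 4894 to 5215 CPM in LowAhR and from 8990 to 15068 CPM in LowAhR+AD. Over all marker lists, only Krt72 (hair follicle) in Cont and Mc5r (sebaceous gland) in LowAhR+AD were without counts in a whole group. The part of these cell types in the results was not tested. In bulk tissue, fewer cells of a type and less RNA per cell cannot be told apart. LowAhR+AD replicate 1 stood apart, with 831 CPM of suprabasal and granular keratinocyte markers against a group median of 2520.4 and 43.5 CPM of leukocyte markers against 193. The same library had the highest sum of the keratinocyte list, 15068 CPM against a group median of 10077, and the lowest sums of the hair follicle, adipocyte and fibroblast lists. Several results of the set are therefore also given without it, but those of genes outside the set were not fitted again.

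The kallikreins differed in level by several orders of magnitude. QuantSeq reads about 1 fragment per transcript next to its poly(A) tail, so CPM can be compared between genes without a correction for length. In Cont skin, Klk7 was the most abundant, at 1943 ± 342 CPM (SD, n = 4), followed by Spink5 at 1386 ± 191 CPM. Klk10 (173 ± 105 CPM) and Klk5 (113 ± 13.5 CPM) came next and overlapped in range, as did Klk8 (45.9 ± 5.29 CPM) and Klk9 (45.4 ± 8.43 CPM). Klk6, at 14.4 ± 2.98 CPM, came after these and overlapped with Klk11, at 11.3 ± 5.18 CPM. Klk13 and Klk14 were at the edge of detection in Cont, with 0 to 18 counts and 0 to 1 count per library. The order changed in DNCB-treated skin chiefly through Klk6, which took the third place in LowAhR+AD (761 ± 638 CPM) and in LowAhR+AD+BJ (1160 ± 210 CPM), although its range overlapped with that of Klk10 in both groups and with that of Spink5 in LowAhR+AD. Klk7 stayed first in the mean of every group.

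**Figure D1:**
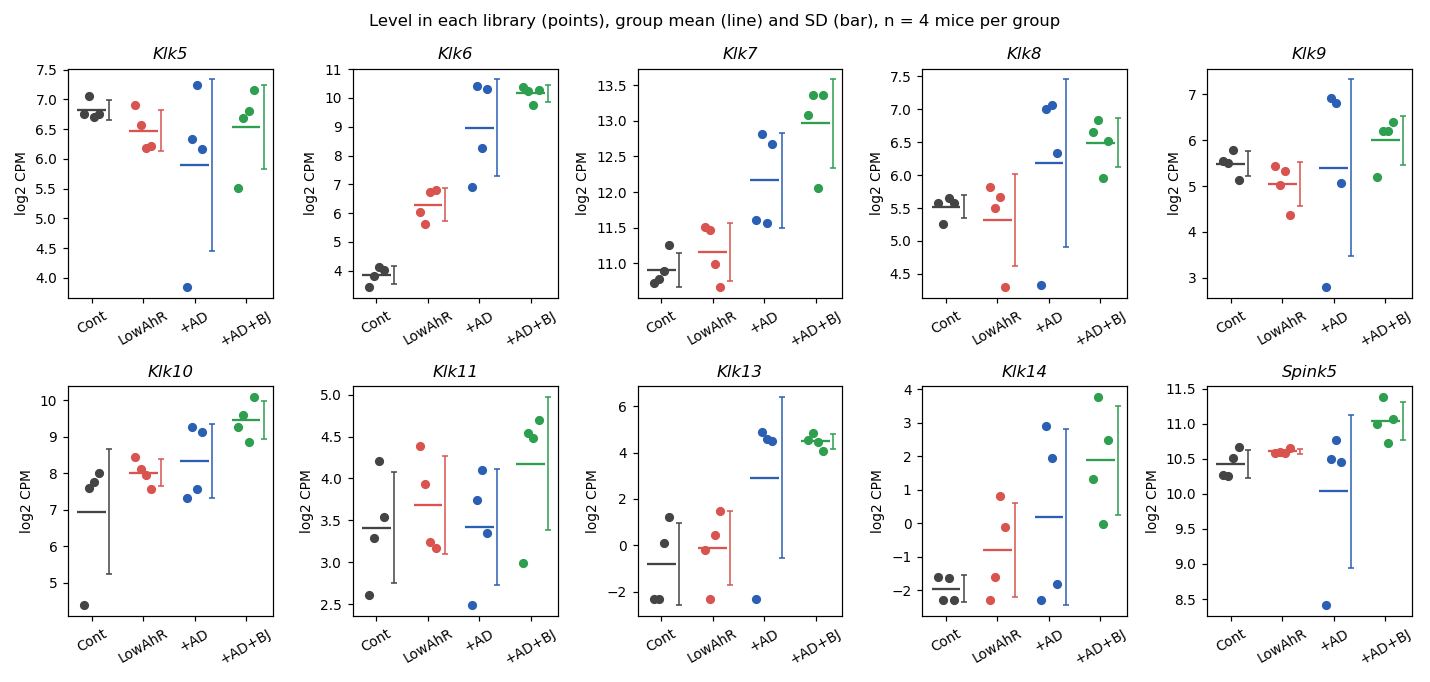
Level of each of the 10 genes in every library, as log2 CPM with a prior count of 2; points are libraries, lines are group means and bars are SDs (n = 4; +AD and +AD+BJ stand for LowAhR+AD and LowAhR+AD+BJ). Klk6 libraries of LowAhR all lie above those of Cont, and LowAhR+AD replicate 1 is the lowest of its group for Klk5, Klk6, Klk8, Klk9, Klk10, Klk11, Klk13, Klk14 and Spink5.

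Klk6, a trypsin-like kallikrein made in skin and brain, differed between the groups without DNCB and those with it. Its level in Cont was 10.5, 13.8, 17.4 and 15.9 CPM in replicates 1 to 4. In LowAhR it was 64.9, 48.9, 106 and 112 CPM, so the lowest LowAhR value exceeded the highest Cont value. Under DNCB it was 121, 1359, 306 and 1258 CPM, a spread of about an order of magnitude within the group, yet with no overlap with LowAhR. With BJIKT added it was 1336, 1221, 855 and 1227 CPM, a much narrower range that overlapped with LowAhR+AD. The counts behind these values were 82 to 141 per library in Cont and 1584 to 16578 in LowAhR+AD.

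The comparison of LowAhR with Cont asks what the diet did together with its paper bedding, which the methods name for the low-ligand groups and which cannot be told apart from the diet here. No member was called higher or lower at an adjusted p under 0.05 with edgeR, and the share called over all 14854 genes was 0%, with 2031 genes at an unadjusted p under 0.05. Klk6, the member nearest to a call, had a log2 fold change of 2.53 ± 0.54 (SE, n = 4 and 4; 5.76-fold) and an adjusted p of 0.0659 by edgeR, and it was the single member with an unadjusted p under 0.05. It was also the single member higher without overlap, against 5.68% of all genes. A two-sided exact permutation test of its log2 CPM gave p = 0.0286, the smallest that 4 against 4 libraries allow. Whether Klk6 passed the threshold depended on the method: DESeq2 gave an adjusted p of 0.000178 and called it (the only member it called, among 491 genes), whereas limma voom gave 0.281 and called no gene. Over all alternatives the log2 fold change of Klk6 stayed between 2.35 and 2.75. It was called in 1 of the 8 fits without 1 library, that without LowAhR replicate 2 (adjusted p = 0.0330, edgeR), which called 159 of 15265 genes. The other members had log2 fold changes from -0.42 for Klk9 to 3.03 for Klk14, which had at most 12 counts in a LowAhR library. The median was 0.26 over the 10 members and 0.03 over all genes. The summed hair follicle markers were at 30.02 to 1035 CPM in Cont and at 107 to 12508 CPM in LowAhR, and the summed adipocyte markers at 3109 to 5927 CPM and at 7973 to 12301 CPM. Their part in the Klk6 difference was not tested.

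The comparison of LowAhR+AD with LowAhR asks what DNCB did on the low-ligand diet. Klk6 and Klk13 rose, and no member fell: 2 of 10 members were called higher against 6.42% of all genes, and 0 of 10 lower against 6.21%. Klk6 rose by 3.20 ± 0.55 on the log2 scale (9.16-fold, adjusted p = 0.00181, edgeR). Klk13, another trypsin-like kallikrein, rose by 4.06 ± 1.21 (adjusted p = 0.0339, edgeR). Klk7, the chymotrypsin-like enzyme that cuts corneodesmosin, had a log2 fold change of 1.08 ± 0.35 and missed the threshold narrowly, with an adjusted p of 0.05004 by edgeR. It was called by DESeq2 and limma voom (adjusted p = 0.0121 and 0.0430), and by edgeR without LowAhR+AD replicate 1 or 3. Klk6 and Klk7 were the members with no overlap between the groups, 2 of 10 against 8.92% of all genes. The median log2 fold change was 1.04 over the members and 0.04 over all genes.

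Klk13 was near the limit of detection in skin without DNCB. It was at 0, 0, 0.863 and 2.15 CPM in Cont and at 0.676, 0, 1.17 and 2.62 CPM in LowAhR, that is, at most 22 counts in a library. It was at 0, 29.4, 23.9 and 22.5 CPM in LowAhR+AD and at 23.2, 28.8, 22.0 and 16.7 CPM in LowAhR+AD+BJ. Of the 8 DNCB-treated libraries, 7 therefore lay between 16.7 and 29.4 CPM, and the remaining one, LowAhR+AD replicate 1, had no count. Without that library the log2 fold change against LowAhR was 4.48 ± 0.85 (adjusted p = 0.00319, edgeR). The call with all libraries was lost when LowAhR replicate 1, 2 or 3 or LowAhR+AD replicate 2, 3 or 4 was left out, with adjusted p values of 0.0504 to 0.0927 (edgeR). It was also lost with limma voom (2.86, adjusted p = 0.504), with the replicate number as a block (4.04, adjusted p = 0.0579, edgeR) and with only the 8 libraries compared (4.05, adjusted p = 0.105, edgeR).

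Klk7 was at 1687, 1751, 1894 and 2439 CPM in Cont and at 2927, 2838, 2037 and 1622 CPM in LowAhR, which overlapped. It was at 3119.5, 7179, 3030.2 and 6540.3 CPM in LowAhR+AD, where each library exceeded the highest LowAhR library. With BJIKT added it was at 8620.0, 10544, 4239 and 10510.3 CPM. Klk7 rose in LowAhR+AD against Cont (log2 fold change 1.35 ± 0.35, adjusted p = 0.0104, edgeR) and in LowAhR+AD+BJ against LowAhR (1.85 ± 0.36, adjusted p = 0.00594, edgeR). These results depended on the scale. Per count of the 7 genes of the keratinocyte list, which shifts the median log2 fold change of all genes to -1.02 in LowAhR+AD against LowAhR, Klk7 had a log2 fold change of 0.04 ± 0.37 (adjusted p = 0.934, edgeR). On that scale its calls against Cont and in LowAhR+AD+BJ against LowAhR were also lost (adjusted p = 0.279 and 0.0891, edgeR), whereas Klk6 still rose in LowAhR+AD against LowAhR by 2.20 ± 0.57 (adjusted p = 0.00571, edgeR). Klk13 stood at 3.13 ± 1.25 on that scale (adjusted p = 0.05002, edgeR), which ended its call. LowAhR+AD replicate 1 holds the group's highest sum of this list, so the scale was also applied without it, an alternative chosen after seeing the data. Klk7 then stood at 0.29 ± 0.31 (adjusted p = 0.464, edgeR), and Klk6 rose by 2.58 ± 0.39 (adjusted p = 0.000194, edgeR) and Klk13 by 3.54 ± 0.91 (adjusted p = 0.00584, edgeR), while the median of all genes was at -0.91.

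**Figure D2:**
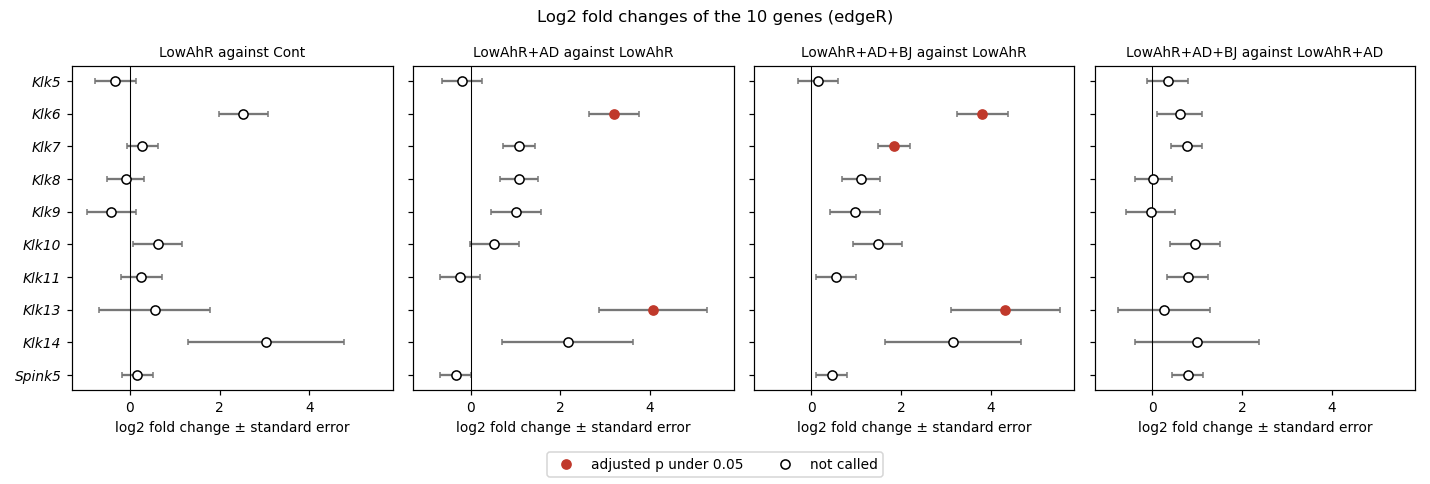
Log2 fold change of each gene with its standard error in 4 comparisons, from the edgeR model of all 16 libraries; filled points have an adjusted p under 0.05 over all genes. Klk6 and Klk13 are filled in both comparisons of DNCB-treated mice with LowAhR, Klk7 in that of LowAhR+AD+BJ, and no point is filled for the diet or for BJIKT.

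Klk8 and Klk9, neighbours in the cluster, were higher in DNCB-treated skin in most libraries but were not called with all libraries. Klk8, which encodes a trypsin-like protease, was at 56.5, 45.3, 50.7 and 19.4 CPM in LowAhR and at 19.9, 128, 133 and 80.3 CPM in LowAhR+AD. Its log2 fold change was 1.07 ± 0.42 (adjusted p = 0.1004, edgeR). Klk9 was at 43.3, 32.5, 39.9 and 20.5 CPM in LowAhR and at 6.71, 121, 112 and 33.5 CPM in LowAhR+AD. Its log2 fold change was 1.01 ± 0.55 (adjusted p = 0.241, edgeR). In both genes LowAhR+AD replicate 1 was the lowest library of its group. Without it, 5 members rather than 2 were called higher against LowAhR, namely Klk6, Klk7, Klk8, Klk9 and Klk13, and 11.4% of all genes were called in either direction, against 12.6% with all libraries. Klk8 was then at a log2 fold change of 1.40 ± 0.30 (adjusted p = 0.00647, edgeR) and Klk9 at 1.38 ± 0.37 (adjusted p = 0.0225, edgeR). On the keratinocyte scale with all libraries, Klk8 and Klk9 stood at 0.12 and 0.07, and without LowAhR+AD replicate 1 at 0.48 and 0.46 (adjusted p = 0.209 and 0.333, edgeR).

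Klk5, Klk10 and Klk11 were not called in any comparison with edgeR on all libraries. Klk5, which can start the activation of other kallikreins, was at 108, 133, 104 and 108 CPM in Cont. It was at 120.4, 94.8, 72.8 and 74.2 CPM in LowAhR, at 14.1, 80.2, 151 and 72.0 CPM in LowAhR+AD and at 45.5, 102, 111 and 142 CPM in LowAhR+AD+BJ. All 4 groups overlapped, and the log2 fold change of LowAhR+AD against LowAhR was -0.19 ± 0.45 (adjusted p = 0.827, edgeR). Klk10 was at 347, 277, 246 and 191 CPM in LowAhR and at 161, 612, 189.8 and 561 CPM in LowAhR+AD. With BJIKT added Klk10 was at 620.1, 776, 463 and 1088 CPM, each above every LowAhR library, with a log2 fold change against LowAhR of 1.47 ± 0.55 (adjusted p = 0.120, edgeR). It was called there when only those 8 libraries were modelled (1.46, adjusted p = 0.0131, edgeR). Klk11 stayed between 5.41 and 25.7 CPM in all 16 libraries.

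Klk14, a strongly trypsin-like kallikrein, was the least abundant member. It had 0 or 1 count in every Cont library and 0, 1, 12 and 6 counts in LowAhR. In LowAhR+AD it had 0, 88, 47 and 1 counts, so 2 of the 4 libraries carried nearly all of them, and in LowAhR+AD+BJ it had 25, 132, 10 and 54 counts. Klk14 was called in LowAhR+AD against Cont (adjusted p = 0.0447, edgeR). Because Cont held 2 counts in all, the ratio is given from pooled counts, 136 against 2, as 41.7 per total count with an exact 95% interval of 11.3 to 348 that covers counting error only. The call was lost without Cont replicate 1, 2, 3 or 4 and without LowAhR+AD replicate 2 or 3, with adjusted p values of 0.0695 to 0.129 (edgeR). It was also lost with limma voom (adjusted p = 0.415), with the replicate number as a block (adjusted p = 0.156, edgeR) and on the keratinocyte scale described above (adjusted p = 0.0583, edgeR).

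LowAhR+AD against Cont combines the diet and DNCB and shares libraries with the comparisons above. Klk6, Klk7, Klk13 and Klk14 rose, 4 of 10 members against 12.3% of all genes, and 0 of 10 fell against 9.47%. Klk6 rose by a log2 fold change of 5.72 ± 0.63 (52.8-fold, adjusted p = 4.78e-05, edgeR), the largest of the set, and Klk13 by 4.61 ± 1.25 (adjusted p = 0.0136, edgeR). The call of Klk13 was lost with limma voom (adjusted p = 0.392) and with only the 8 libraries compared (adjusted p = 0.0585, edgeR). Klk6 and Klk7 did not overlap between the groups, 2 of 10 members against 12.9% of all genes. The median log2 fold change was 1.06 over the members and 0.05 over all genes.

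LowAhR+AD+BJ mice are a separate set of DNCB-treated animals, although they also received BJIKT and are compared with the same LowAhR libraries. Klk6, Klk7 and Klk13 rose against LowAhR, 3 of 10 members against 3.64% of all genes, and 0 of 10 fell against 3.12%. Klk6 rose by 3.80 ± 0.57 (14.0-fold, adjusted p = 0.00115, edgeR) and Klk13 by 4.31 ± 1.22 (adjusted p = 0.0399, edgeR). The call of Klk13 was lost without LowAhR replicate 1, 2 or 3 or LowAhR+AD+BJ replicate 1, 2 or 4, and with limma voom (adjusted p = 0.251). Without overlap, 6 of the 10 members (Klk6, Klk7, Klk8, Klk10, Klk13 and Spink5) were higher than LowAhR, against 8.91% of all genes. The median log2 fold change was 1.29 over the members and 0.01 over all genes.

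LowAhR+AD+BJ against LowAhR+AD asks what BJIKT did in DNCB-treated skin. No member was called with edgeR, as was true of every gene (0% of 14854, with 1405 genes at an unadjusted p under 0.05), nor with DESeq2, which called 17 genes, or limma voom, which called none. Klk7 (log2 fold change 0.77 ± 0.35, adjusted p = 0.511, edgeR) and Spink5 (0.79 ± 0.34, adjusted p = 0.507, edgeR) had unadjusted p values under 0.05. All members overlapped between the 2 groups. The log2 fold changes ran from -0.04 for Klk9 to 1.00 for Klk14, with a median of 0.69 over the members and -0.00023 over all genes. As differences of mean log2 CPM, Klk5, Klk8, Klk9 and Klk13 stood at 0.64, 0.31, 0.59 and 1.57 with all libraries. Without LowAhR+AD replicate 1 they stood at -0.04, -0.31, -0.28 and -0.17. Spink5 stood at 1.01 and, without that library, at 0.46. Klk6, Klk7, Klk10, Klk11 and Klk14 stayed positive without it, from 0.44 for Klk11 to 0.88 for Klk14.

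Spink5, the inhibitor, was not called in any of the 5 comparisons. It was at 1238, 1225, 1456 and 1625 CPM in Cont and at 1537, 1554, 1532 and 1611 CPM in LowAhR, the tightest group of any member. It was at 340.2, 1451, 1749.6 and 1397 CPM in LowAhR+AD, where replicate 1 stood far below the rest. With BJIKT added it was at 2036, 2667, 1687 and 2143 CPM, each above every LowAhR library. The log2 fold change of LowAhR+AD against LowAhR was -0.34 ± 0.34 (adjusted p = 0.559, edgeR), and -0.03 ± 0.20 without LowAhR+AD replicate 1. On the keratinocyte scale it was -1.30 ± 0.42 (adjusted p = 0.0183, edgeR), and without LowAhR+AD replicate 1 it was -0.95 ± 0.22 (adjusted p = 0.00345, edgeR), so Spink5 was called lower on that scale alone. That scale put the median of all genes at -1.02 with 44.6% of them called, and at -0.91 with 39.4% without that library. The Spink5 values lay near these medians, so the calls do not set Spink5 apart from most genes.

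Ratios of counts within a library do not depend on its total or on the scaling. The ratio of Klk6 to Spink5 was 0.00849 to 0.0119 in Cont, 0.0314 to 0.0696 in LowAhR, 0.175 to 0.937 in LowAhR+AD and 0.458 to 0.656 in LowAhR+AD+BJ. It was therefore higher without overlap in LowAhR than in Cont and in LowAhR+AD than in LowAhR. The ratio of Klk7 to Spink5 was 1.301 to 1.5004 in Cont, 1.01 to 1.90 in LowAhR, 1.73 to 9.17 in LowAhR+AD and 2.51 to 4.90 in LowAhR+AD+BJ. It overlapped between LowAhR and LowAhR+AD but not between Cont and LowAhR+AD, and its highest value was that of LowAhR+AD replicate 1. The ratio of Klk5 to Spink5 overlapped in all 5 comparisons. Klk6 counts were 0.0974 to 0.167 of those of its neighbour Klk5 in Cont, 0.516 to 1.51 in LowAhR and 2.03 to 17.5 in LowAhR+AD. Of 20 ratio comparisons by two-sided exact permutation test, those without overlap reached the smallest possible p of 0.0286, which became 0.0571 after Benjamini-Hochberg adjustment over the 20.

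**Figure D3:**
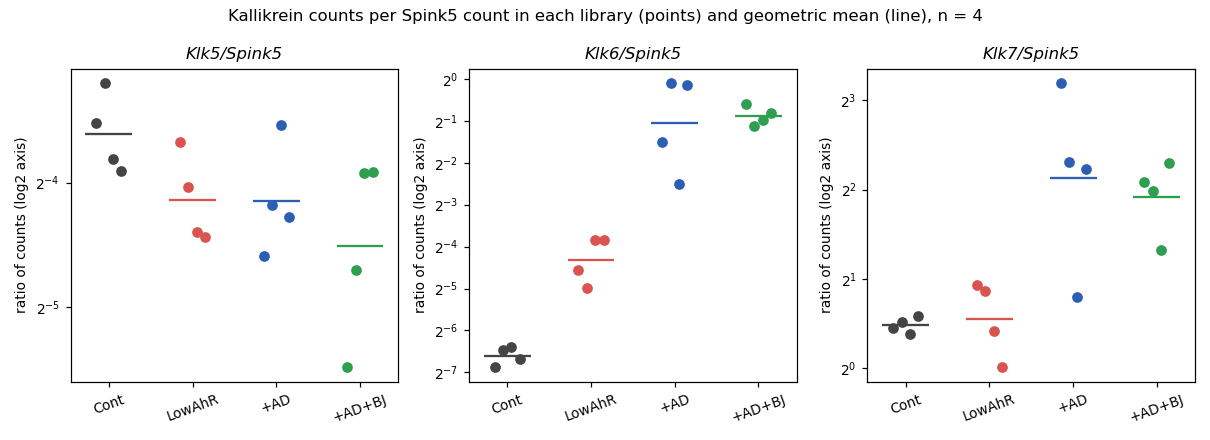
Counts of Klk5, Klk6 and Klk7 per count of Spink5 in each library on a log2 axis; points are libraries and lines geometric means (n = 4). The Klk6 ratio lies at 0.0119 or below in Cont and at 0.175 or above in LowAhR+AD, whereas the Klk5 ratios overlap in each of the 5 comparisons made.

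The 9 kallikreins together took 0.247% ± 0.0402 (SD, n = 4) of the counts in Cont, 0.282% ± 0.0730 in LowAhR, 0.644% ± 0.296 in LowAhR+AD and 1.01% ± 0.295 in LowAhR+AD+BJ. Klk7 gave most of these counts in every group, with mean shares of 82.9%, 81.2%, 79.6% and 78.4%. Klk6 gave 0.615% ± 0.0911 of the kallikrein counts in Cont, 3.22% ± 1.91 in LowAhR, 10.04% ± 5.396 in LowAhR+AD and 11.4% ± 2.55 in LowAhR+AD+BJ. The share of Klk5 was 4.96% ± 1.10 in Cont and 1.05% ± 0.629 in LowAhR+AD+BJ.

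**Figure D4:**
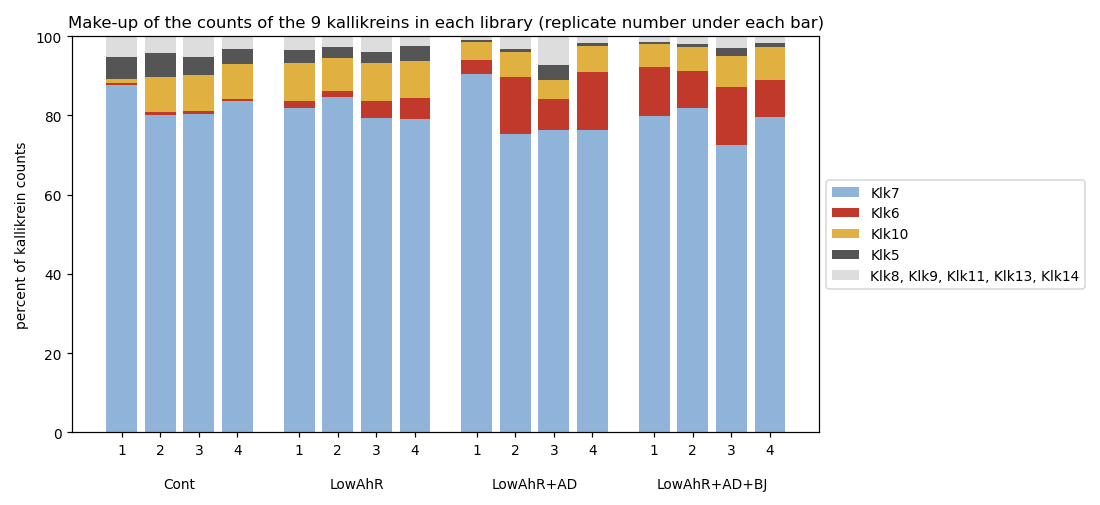
Share of each kallikrein in the summed counts of the 9 kallikreins, in percent, with 1 bar per library. Klk7 fills 72.5% to 90.5% of every bar, and the Klk6 part is 0.545% to 0.737% in Cont and 3.50% to 14.7% in LowAhR+AD.

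Klk6 and its direct neighbours in the cluster had unlike log2 fold changes, but the difference between Klk6 and Klk7 was not tested. Klk6 lies between Klk7 and Klk5, and in LowAhR+AD against LowAhR their log2 fold changes were 3.20 for Klk6, 1.08 for Klk7 and -0.19 for Klk5. The Klk6 record ends 10.2 kb before the Klk5 start whose promoter is shown. Klk13, with 4.06, lies towards the other end of the cluster. A transcript on the minus strand, 2310002F09Rik, overlaps Klk14, Klk13, Klk11, Klk10, Klk9 and Klk8 in GENCODE, and it had 0 to 29 counts of its own. Whether the counting used strand is not given in the sources used here, so for these 6 kallikreins reads of the 2 strands cannot be told apart. On the plus strand, Gm44817 overlaps Klk14 and Gm44814 overlaps Klk13, and use of strand would not separate those reads. Klk7, Klk6 and Klk5 overlap no other annotated gene.

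**Figure D5:**
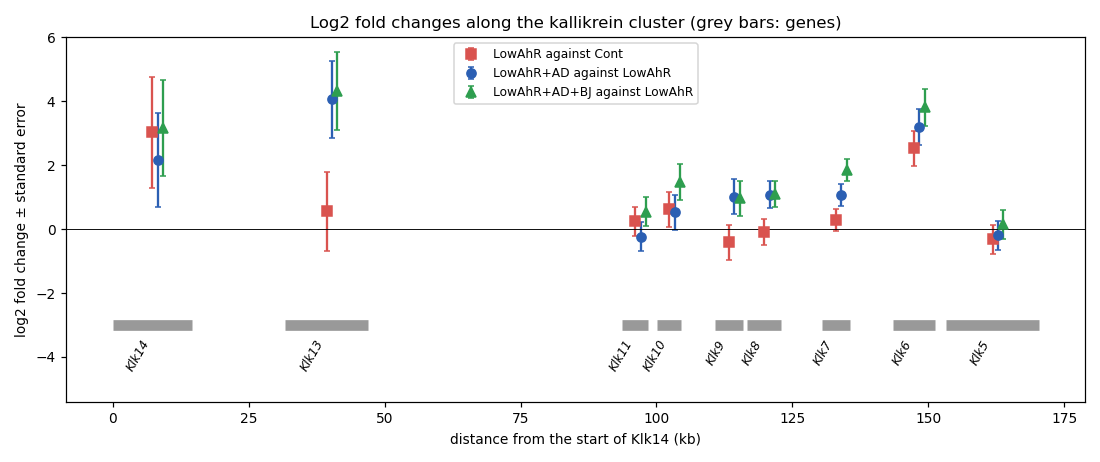
Log2 fold change with standard error of each kallikrein in 3 comparisons against its distance in kb from the start of the Klk14 gene record; grey bars are the RefSeq gene records. Klk6 and Klk13 stand highest in both comparisons with DNCB-treated mice, with Klk5 and Klk7 beside Klk6 at -0.19 and 1.08 in LowAhR+AD against LowAhR.

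Other kallikrein genes were hardly detected in this skin. Of 18 further rows, mostly of the Klk1 family, only Klk1 and Klk12 passed the filter, with at most 31 and 43 counts in a library, and neither was called in LowAhR+AD against LowAhR. Klk12 was called higher in LowAhR+AD against Cont (adjusted p = 0.0393, edgeR). Among 15 tested proteases that act beside the kallikreins, 2 rose and 0 fell in LowAhR+AD against LowAhR, against 6.42% and 6.21% of all genes. These were St14 (matriptase, which can activate kallikrein precursors; log2 fold change 1.37 ± 0.37, adjusted p = 0.0209, edgeR) and Ctsd (cathepsin D, a lysosomal protease; 0.79 ± 0.22, adjusted p = 0.0266, edgeR). Among 15 tested protease inhibitors other than Spink5, 5 rose and 1 fell, against the same shares of all genes. Slpi (secretory leukocyte protease inhibitor, a KLK7 inhibitor) rose by 4.76 ± 0.65 (adjusted p = 0.000336, edgeR), Spink12 by 4.44 ± 0.95 (adjusted p = 0.00810, edgeR) and Spint1, an inhibitor of matriptase, by 1.33 ± 0.21 (adjusted p = 0.00110, edgeR). Wfdc12 rose by 3.06 ± 0.63 (adjusted p = 0.00501, edgeR) and Spink6 by 5.74 ± 1.51 (adjusted p = 0.0225, edgeR). Spink6 was near the limit of detection in LowAhR, at 0 to 0.835 CPM, and ranged from 0 to 17.5 CPM in LowAhR+AD. Serpinb6c fell by 1.35 on the log2 scale (adjusted p = 0.0489, edgeR). Unlike these inhibitors, Spink5 was not called, but the difference between them was not tested. None of the 5 tested corneodesmosome genes (Cdsn, Dsg1a, Dsg1b, Dsg1c and Dsc1), whose products kallikreins cut, was called in LowAhR+AD against LowAhR. Their log2 fold changes went both ways there, with a median of -0.68. Cdsn stood at 0.71 ± 0.33 (adjusted p = 0.162, edgeR) and Dsc1 at 0.33. Dsg1a, Dsg1b and Dsg1c stood at -0.68, -0.68 and -0.76. In LowAhR+AD against Cont, Dsg1a fell by 1.41 on the log2 scale (adjusted p = 0.00298, edgeR). Of 5 other substrates and receptors, Il1b, whose product several proteases can mature, rose (2.20 ± 0.61, adjusted p = 0.0245, edgeR). In LowAhR+AD+BJ against LowAhR, 4 of the 15 proteases (Prss27, Ctsl, Ctsd and Ctsb) and 6 of the 15 inhibitors (Spint1, Spink12, Slpi, Wfdc12, Cst6 and Serpinb5) rose, and none of either list fell. Over all genes, 3.64% were called higher and 3.12% lower in that comparison.

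Genes outside the set were ranked by how closely their log2 CPM followed that of the kallikreins. Over the 16 libraries and 9373 genes with a mean of at least 10 CPM, the highest Pearson correlations with the mean z-score of the 9 kallikreins were those of Serpinb5 (maspin, 0.958), Sprr2d (a small proline-rich protein of the cornified envelope, 0.951), Ola1 (0.947), Rptn (repetin, another epidermal envelope protein, 0.944) and Gpsm1 (0.935). These libraries share the group differences, and after the group means were removed the correlations were 0.901 to 0.936. For Spink5 the highest were Cept1 (0.954), Plp2 (0.947), Rps15a-ps4 (0.942), 3110043O21Rik (0.939) and Gm10012 (0.938), and without LowAhR+AD replicate 1 these fell to between 0.707 and 0.799. Between members, Klk6 and Klk7 correlated at 0.88 and Klk5 and Klk9 at 0.78, and at 0.56 and 0.89 after the group means were removed. With LowAhR+AD replicate 1 left out as well, these became 0.47 and 0.65. Klk5 and Klk6 correlated at -0.13, a value that turned to 0.39 after the group means were removed and to -0.62 when LowAhR+AD replicate 1 was left out as well. All these values are descriptions, and those with the group means kept also hold the group differences.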

How the data were processed

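The authors made QuantSeq libraries from total RNA of dorsal skin and deposited whole-number counts per gene symbol for each library. The submitters' processing notes name Bowtie2, bedtools and the mm10 build. Versions, the handling of reads that map to several genes and the use of strand are not given in the sources used here. Groups and replicate numbers came from the sample labels.

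All 16 libraries entered 1 model in edgeR 4.0.16 (R 4.3.3, quasi-likelihood test, TMM factors of 0.892 to 1.16), on the rows kept by filterByExpr (count 10, total 15). Calls needed an adjusted p under 0.05 (Benjamini-Hochberg, 14854 rows). CPM values use TMM-scaled totals, and log2 CPM a prior count of 2. Nothing in the labels pairs the mice. Single values were compared by two-sided exact permutation tests (scipy 1.17.1). Replicates differed by more than the sampling noise (chi-square per degree of freedom 16.4 to 285), so each counted as 1 sample. The script was tested on simulated data.

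The 10 members were chosen by name, and the members, the lists and the rule for likeness (the 5 genes with the highest correlation) were chosen with earlier results of these data known. Besides the members, only genes of these lists were named. Promoters came from the RefSeq table of GRCm38.p6 and positions from RefSeq and GENCODE vM21. The table matched all 9 kallikreins, and the promoter of Spink5 is not shown. Roles of the proteins are background knowledge, since no protein sequences were used here. The alternatives were RLE factors, DESeq2 1.42.0, limma voom (limma 3.58.1), no filter, at least 10 counts in every library, the replicate number as a block, scaling to the summed counts of 7 keratinocyte genes, a model of only the 8 libraries compared, and each library left out in turn. Keratinocyte scaling without LowAhR+AD replicate 1 was added after seeing the data.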

Additional observations from a re-analysis of the deposited data

Results flagged for a closer look

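In 5 of the 40 groups of 4 libraries (10 genes in 4 groups), 1 library lay so far below the other 3 that the gap exceeded Dixon's 95% limit, a limit that chance alone passes in about 1 of 20 groups. Klk13 at 0 CPM and Spink5 at 340.2 CPM were both in LowAhR+AD replicate 1. Klk9 at 36.4 CPM and Klk11 at 7.75 CPM were both in LowAhR+AD+BJ replicate 1. Klk10 at 20.8 CPM was in Cont replicate 1, against 192 to 259 CPM in the other Cont libraries. No sample was removed from the main comparisons for this reason.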

How the results depend on the processing

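The count of members called in LowAhR against Cont was 0 and became 1 (Klk6) with DESeq2 (491 of 14854 genes called), with at least 10 counts in every library (35 of 10224) and with only the 8 libraries compared (250 of 13574). With 1 library left out it ranged from 0 to 1, and the 1 call came without LowAhR replicate 2 (159 of 15265 genes called). In LowAhR+AD against LowAhR the count was 2 (1876 of 14854 genes called) and became 1 (Klk6) with the replicate block (1689 of 14854) and with only the 8 libraries compared (765 of 13946). With 1 library left out it ranged from 1 to 5. It was 5 without LowAhR+AD replicate 1 (1718 of 15028 genes). It was 1 without LowAhR replicate 1, 2 or 3 or LowAhR+AD replicate 2 or 4, where 7.39% to 10.1% of all genes were called. In LowAhR+AD against Cont the count was 4 (3233 of 14854 genes called) and became 2 with limma voom (3206 of 14854), at least 10 counts in every library (2932 of 10224), keratinocyte scaling (5224 of 14854) and only the 8 libraries compared (2351 of 13844). With 1 library left out it ranged from 3 to 5, and 16.1% to 23.2% of all genes were called. In LowAhR+AD+BJ against LowAhR+AD it was 0 in every alternative run, and in LowAhR+AD+BJ against LowAhR it was 3 (1005 of 14854 genes called) and ranged from 2 to 4. The share of all genes called there ranged from 2.75% without LowAhR+AD+BJ replicate 2 to 37.5% with keratinocyte scaling. At least 10 counts in every library left 8 members to test, without Klk13 and Klk14, and only the 8 libraries compared left 8 or more, since fewer samples enter the filter and the spread. Other causes were not tested.

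Deviations of same-numbered libraries correlated at -0.055 to 0.167 over 24 pairs, with 3 above 0.1, and those of other pairs at -0.146 to 0.140. The labels name no pairing, but low correlations cannot exclude one. With the replicate block, 0 members were called in LowAhR against Cont, 1 in LowAhR+AD against LowAhR, 3 in LowAhR+AD against Cont, 0 in LowAhR+AD+BJ against LowAhR+AD and 3 in LowAhR+AD+BJ against LowAhR. In the same order, 0%, 11.4%, 20.1%, 0% and 6.38% of all genes were called.

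Of the log2 fold changes of members under alternatives, 728 kept direction and side of the threshold, 31 lost the call, 15 gained it and 42 changed sign. None of those that changed sign was called in the main analysis. With keratinocyte scaling the values became 0.13 for Klk8 in LowAhR against Cont, -0.49 for Klk10 in LowAhR+AD against LowAhR, -0.74 for Klk11 and -0.12 for Klk9 in LowAhR+AD against Cont, -0.022 for Klk8 in LowAhR+AD+BJ against LowAhR+AD, and -0.45 for Klk11, -0.85 for Klk5, -0.028 for Klk9 and -0.55 for Spink5 in LowAhR+AD+BJ against LowAhR. With keratinocyte scaling without LowAhR+AD replicate 1, chosen after seeing the data, members called numbered 3 against LowAhR, 3 against Cont and 0 for BJIKT. In the same order, 39.4%, 32.9% and 0% of all genes were called. The 3 members called against LowAhR were Klk6 and Klk13, which were higher, and Spink5, which was lower. Values became -0.19 for Klk10 in LowAhR+AD against LowAhR, -0.44 for Klk11 in LowAhR+AD against Cont, and -0.19 for Klk13, -0.11 for Klk5 and -0.38 for Klk8 in LowAhR+AD+BJ against LowAhR+AD. For Klk11 in LowAhR+AD against Cont they became -0.0054 with RLE factors, -0.0054 with DESeq2, -0.013 with limma voom and -0.011 with at least 10 counts in every library. For Klk9, limma voom gave -0.11 in LowAhR+AD against Cont and 0.61 in LowAhR+AD+BJ against LowAhR+AD. The replicate block gave 0.22 for Klk9 in LowAhR+AD+BJ against LowAhR+AD and -0.0049 for Klk5 in LowAhR+AD+BJ against LowAhR. With 1 library left out, in LowAhR against Cont Klk11 ranged from -0.031 to 0.58, Klk13 from -0.31 to 1.90 and Klk8 from -0.25 to 0.15. In LowAhR+AD against LowAhR, Klk11 ranged from -0.49 to 0.047 and Klk5 from -0.71 to 0.15. In LowAhR+AD against Cont, Klk11 ranged from -0.24 to 0.36 and Spink5 from -0.38 to 0.13. In LowAhR+AD+BJ against LowAhR+AD, Klk13 ranged from -0.17 to 0.54, Klk5 from -0.018 to 0.86, Klk8 from -0.32 to 0.27 and Klk9 from -0.43 to 0.38. For Klk5 in LowAhR+AD+BJ against LowAhR the range was -0.067 to 0.39. Depth limits Klk13 and Klk14, which had 0 counts in some libraries.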
